A study of Mus musculus with 6 samples.

Results

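Oxidative phosphorylation subunits are the proteins of the mitochondrial inner membrane complexes that carry electrons to oxygen and make ATP. They were taken here by gene symbol: genes with 1 annotated symbol that begins with Ndufa, Ndufb, Ndufc, Ndufs or Ndufv and a digit, the 4 Sdh genes, and symbols that begin with Uqcr, Cox4 to Cox8 or Atp5. Cox7a1 and Cox8b, isoforms of muscle and brown fat, were left out. The rule found 79 of the 18193 genes that had a probe set, with 35 in complex I, 4 in complex II, 8 in complex III, 15 in complex IV and 17 in complex V. One probe set stood for each gene, the one with the highest mean over all 6 arrays.

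The arrays measured RNA of whole mammary glands from 3 Elf5 KO mice and 3 wild-type mice, 1 array per animal. The tissue labels give pregnancy day 17, while the design text of the series speaks of lactation day 1, and both refer to these same 6 arrays. The allele, the strain, the age of the mice and the cells in which Elf5 was disrupted are not stated in the sources used here, and the labels name no treatment or allele shared by both groups. Elf5 is an ETS transcription factor of the mammary luminal epithelium, and its probe set read 5616, 4361 and 3128 in KO arrays 1, 2 and 3 and 12011, 8044 and 7244 in wild-type arrays 1, 2 and 3. That is a log2 difference of -1.06 ± 0.32 (SE, limma adjusted p = 0.109, and 0.0151 with the replicate number as a block), and the labels do not say whether this probe set reads the deleted or altered stretch of Elf5.

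Complex I takes electrons from NADH and complex II takes them from succinate, and both hand them to ubiquinone. Complex III passes them to cytochrome c and complex IV, cytochrome c oxidase, passes them to oxygen, while complex V, the ATP synthase, uses the proton gradient to make ATP. Most subunits are encoded in the nucleus and several core subunits of complexes I, III, IV and V are encoded in mitochondrial DNA, which lies outside the symbols used here. Alveolar epithelium of the mammary gland builds up its mitochondria towards lactation, when milk synthesis consumes much ATP.

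No subunit transcript of the 5 respiratory complexes was called higher or lower in Elf5 KO glands. Of the 79 subunit genes, 75 passed the filter on dim genes, and 0 of these rose and 0 fell in limma at an adjusted p under 0.05, where 1.24% of the 10916 genes tested were called (135 genes, 123 or 1.13% higher and 12 or 0.11% lower). At an unadjusted p under 0.05, 3 subunits were higher and 3 lower, or 6 of 75, against 21.8% of all genes tested (13.4% higher and 8.48% lower), and the smallest adjusted p of a subunit was 0.167. With the replicate number as a block 0 of 75 were called, where 12.2% of all genes were, and 19 of 75 had an unadjusted p under 0.05, against 32% of all genes. The mean was higher in the KO for 30 subunits and lower for 45, where 46.1% of all genes tested were lower, with a median log2 difference of -0.13 between KO and wild type, against 0.06 over all genes tested. These are bulk samples, so fewer cells of a type and less RNA per cell cannot be told apart.

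The differences of single subunits ran from -1.06 for Atp5g2 to 1.08 for Ndufa5 on the scale of log2(signal + 16), on which all differences are given. The 95% interval of limma had a median reach of 0.75 to either side over the 75 subunits, and for 34 of them it lay wholly inside a change of 2-fold in either direction. For the other subunits the interval reached past 2-fold in at least 1 direction. KO and wild-type arrays were fully apart for 8 subunits, 4 higher and 4 lower, or 10.7%, against 27.3% of all genes tested (16.7% higher and 10.6% lower).

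**Figure D1:**
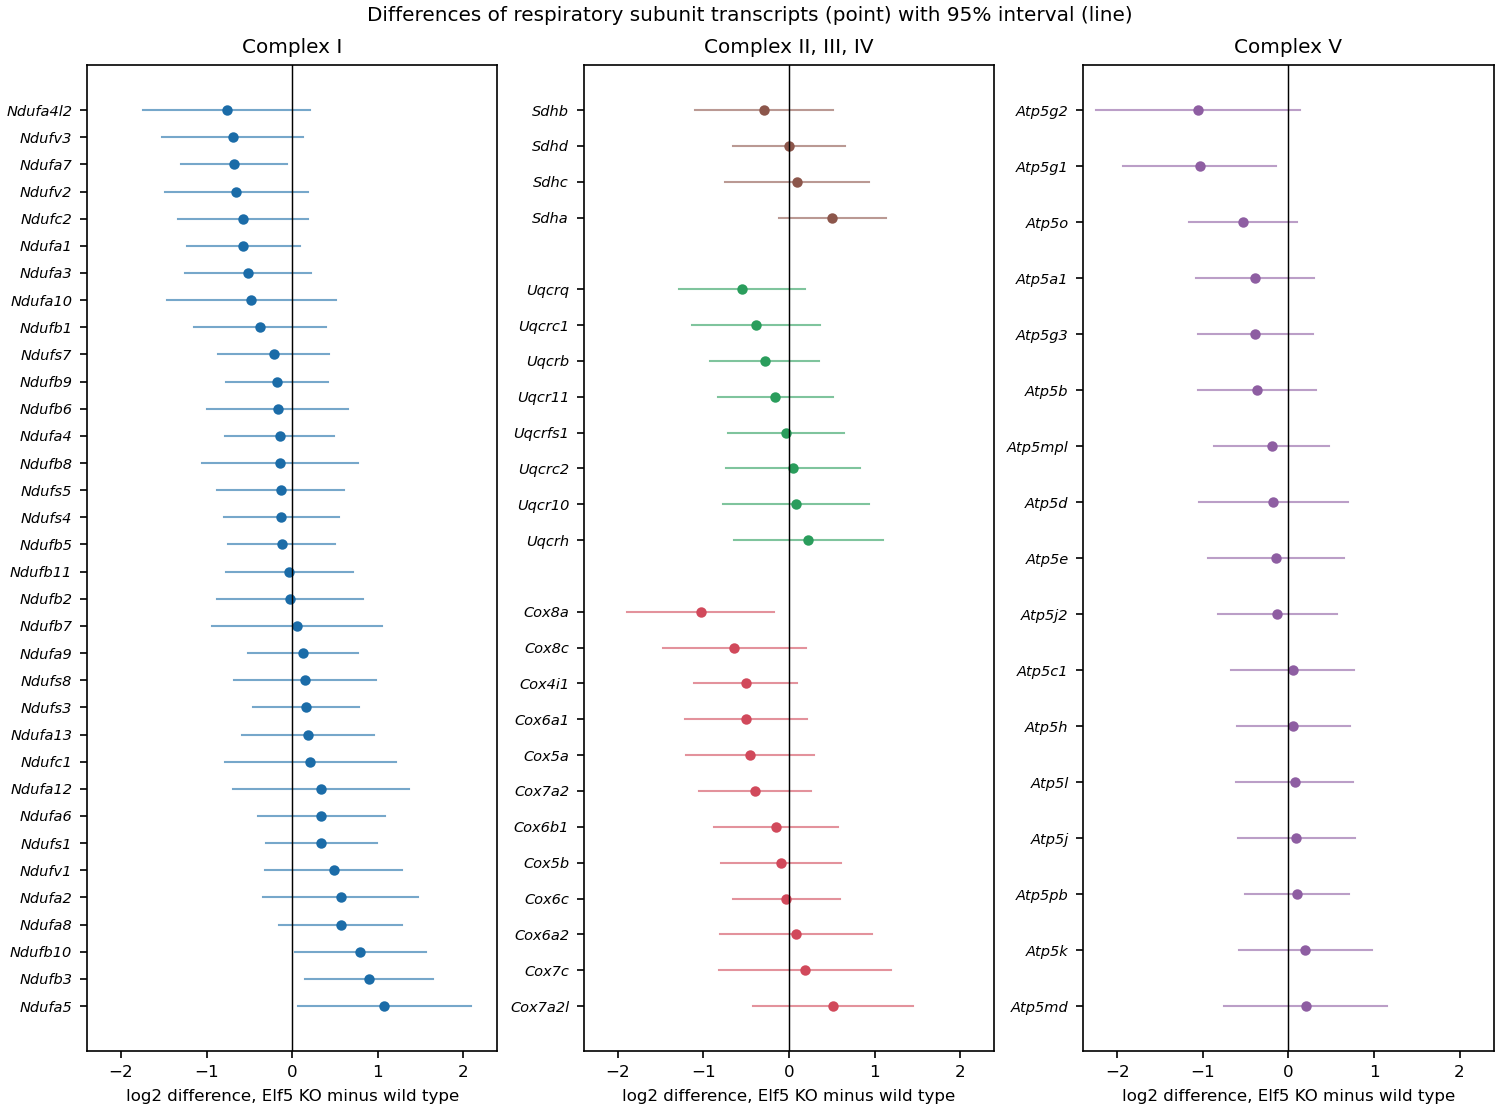
Log2 difference between Elf5 KO and wild type (x axis) for the 75 subunits tested, by complex, with points for limma's estimate and lines for its 95% interval (3 arrays per group). Points ran from -1.06 for Atp5g2 to 1.08 for Ndufa5, and no subunit passed at an adjusted p under 0.05.

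Subunit signals varied between arrays of the same group, and they did so together. Taken as the median over the 75 subunits relative to the mean of the 3 wild-type arrays, KO arrays 1, 2 and 3 lay at 0.04, -0.45 and -0.01 on the log2 scale, and wild-type arrays 1, 2 and 3 at 0.26, -0.31 and 0.05. The array numbered 2 was thus the lowest of each group. KO array 2 was the lowest KO array for 49 of 75 subunits (65.3%), against 23.4% of all genes tested. Wild-type array 1 was the highest wild-type array for 56 of 75 (74.7%), against 37.2%. Without KO array 2 the median difference of the 75 subunits was 0.08, without wild-type array 1 it was 0.03, and without any 1 of the other arrays it lay between -0.28 and -0.07. Medians over all genes tested stayed between -0.01 and 0.12 in the 6 arrays.

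By complex, the medians of complex IV were lower in all 3 KO arrays than the wild-type mean (-0.22, -0.60 and -0.17 in KO arrays 1, 2 and 3), but wild-type arrays 2 and 3 also lay below it (0.35, -0.28 and -0.08 in wild-type arrays 1, 2 and 3). Complex II stood at 0.47, -0.05 and -0.30 in KO arrays 1, 2 and 3, and at 0.21, -0.19 and 0.09 in wild-type arrays 1, 2 and 3. In complexes I, III, IV and V the KO array with the lowest median was array 2, and in complex II it was array 3. KO and wild-type arrays overlapped in all 5 complexes. Taken between arrays of the same number, KO minus wild type, the medians in pairs 1, 2 and 3 were -0.07, -0.04 and -0.01 in complex I, -0.26, -0.16 and -0.11 in complex III, -0.45, -0.21 and -0.04 in complex IV and -0.27, -0.15 and -0.004 in complex V, so all were below 0. In complex II they were 0.33, -0.02 and 0.003, and over all genes tested 0.07, 0.12 and -0.003.

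**Figure D2:**
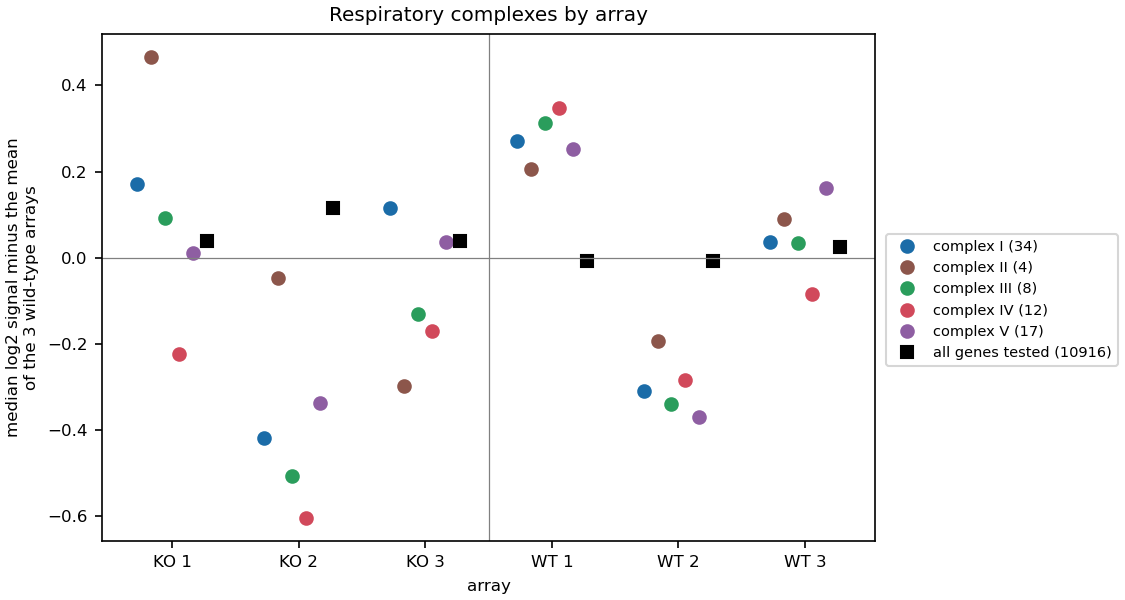
Median over the subunits of each complex of the log2 signal minus the mean of the 3 wild-type arrays (y axis), for each array (x axis), with the number of subunits tested in the legend and all genes tested as squares. The arrays numbered 2 lie lowest in complexes I, III, IV and V, from -0.34 to -0.60 in KO array 2 and from -0.28 to -0.37 in wild-type array 2.

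The 3' to 5' ratio of control transcripts, a measure of RNA integrity, differed within the KO group, and values are therefore also given over the 4 arrays with a ratio of the 3' to the 5' Gapdh control probe set under 2 ("low-ratio arrays"). That ratio was 0.802, 3.89 and 13.6 in KO arrays 1, 2 and 3, against 0.833 to 1.09 in wild type. For the Actb control it was 1.58, 1.87 and 21 in KO arrays 1, 2 and 3. In wild-type arrays 1, 2 and 3 the Actb ratio was 2.04, 1.2 and 1.84, so only KO array 3 lay above wild type by Actb. The low-ratio arrays, chosen on Gapdh alone, hold KO array 1 alone beside the 3 wild-type arrays. In them 47 subunits were higher and 28 lower, with a median of 0.04 over the subunits and 0.04 over all genes tested. That comparison takes the spread from the wild-type arrays alone and holds no measure of the spread between KO mice.

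Complex I, the largest of the complexes, held both the highest subunits and several of the lowest. Of its 35 subunit genes 34 were tested, 15 higher and 19 lower, with 0 calls and a median of -0.08, or 0.17 over the low-ratio arrays. Ndufa5, an accessory subunit of the peripheral arm that reaches into the matrix, read 1603, 1212 and 4481 in KO arrays 1, 2 and 3, against 1012, 849 and 1050 in wild-type arrays 1, 2 and 3. All 3 KO arrays lay above wild type, and KO array 3 was far above the other two. Its difference was 1.08 ± 0.45 (SE, n = 3 arrays per group; limma adjusted p = 0.205). Over the low-ratio arrays it was 0.72. A second Ndufa5 probe set differed by 0.52.

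Ndufb3, an accessory subunit of the membrane arm, read 1580, 1405 and 2506 in KO arrays 1, 2 and 3 and 1216, 715 and 957 in wild-type arrays 1, 2 and 3. The groups did not overlap, and the difference was 0.90 ± 0.34 (SE, limma adjusted p = 0.167). Ndufb10, also of the membrane arm, read 1189, 1114 and 2359 in the KO arrays and 883, 833 and 789 in the wild-type arrays. Its wild-type arrays lay close together, KO array 3 stood apart from the other KO arrays, and the difference was 0.80 ± 0.34 (SE, limma adjusted p = 0.212). Ndufb3 differed by 0.74 and Ndufb10 by 0.50 in the low-ratio arrays.

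At the low end of complex I stood Ndufa4l2, a relative of Ndufa4 induced by hypoxia. It was dim, with signals of 108, 31.9 and 28.1 in the KO arrays and 140, 77.5 and 72.3 in the wild-type arrays. KO array 1 lay among the wild-type values, and the difference of -0.77 ± 0.44 (SE, limma adjusted p = 0.322) turned to 0.19 over the low-ratio arrays. Ndufa4 itself, first counted with complex I and now held to be a subunit of complex IV, read 3224, 2344 and 3104 in the KO arrays and 3385, 2555 and 3664 in the wild-type arrays, so the groups overlapped (-0.14 ± 0.28).

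Ndufv3, an accessory subunit next to the NADH site, read 4219, 1941 and 3315 in the KO arrays and 6902, 3630 and 4634 in the wild-type arrays, with an overlap and a difference of -0.70 ± 0.37 (SE, limma adjusted p = 0.290). Ndufa7, an accessory subunit of the peripheral arm, read 2944, 2547 and 2220 in the KO arrays and 4020, 3468 and 4976 in the wild-type arrays. Here all KO values were below all wild-type values, with a difference of -0.68 ± 0.28 (SE, limma adjusted p = 0.196), against -0.48 over the low-ratio arrays. Its other 4 probe sets differed by -0.25 to 0.17, so they did not share one direction.

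The 2 arms of complex I overlapped in their differences. In the peripheral arm, which holds the NADH site and the iron-sulphur chain, 9 of 14 subunits were higher and 5 lower (median 0.15, from -0.70 for Ndufv3 to 1.08 for Ndufa5). In the membrane arm, which pumps protons, 6 of 18 tested were higher and 12 lower (median -0.13, from -0.57 to 0.90). Ndufa1, encoded on the X chromosome and part of the membrane arm, had non-overlapping groups too, with 6290, 4254 and 6531 in the KO arrays and 10599, 7825 and 6918 in the wild-type arrays. In the low-ratio arrays the medians were 0.11 in the peripheral and 0.17 in the membrane arm, so the order of the arms did not hold there. Of the electron-carrying core subunits, Ndufv1, which binds NADH, differed by 0.49 and Ndufs1, the largest iron-sulphur subunit, by 0.34, while Ndufv2 differed by -0.65. Ndufv2 had 2 further probe sets that differed by 0.22 and 0.58.

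Other accessory subunits of complex I varied in how far their difference changed over the low-ratio arrays, which leave out KO arrays 2 and 3 together. Ndufa2, of the peripheral arm, read 1798, 2141 and 5290 in KO arrays 1, 2 and 3, against 1955, 1581 and 2014 in wild-type arrays 1, 2 and 3 (0.57 ± 0.40, and -0.03 over the low-ratio arrays). Ndufa8, of the membrane arm, read 1472, 1206 and 2063 in the KO arrays and 1268, 797 and 1096 in the wild-type arrays (0.57 ± 0.32, and 0.50 over the low-ratio arrays). Ndufa2 and Ndufa8 thus had the same difference over all arrays and different ones without KO arrays 2 and 3. Ndufb9 read 5363, 4423 and 4297 in the KO arrays and 6403, 4554 and 5054 in the wild-type arrays, with the smallest SE of the complex (-0.18 ± 0.27). A second bright Ndufb9 probe set differed by 0.245.

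Complex II, which is also an enzyme of the tricarboxylic acid cycle, has 4 subunits, all tested and none called. Sdha, the flavoprotein that oxidises succinate, read 2867, 2480 and 3236 in KO arrays 1, 2 and 3, against 2285, 1613 and 2155 in wild-type arrays 1, 2 and 3. Its groups did not overlap, and it was higher by 0.51 ± 0.28 (SE, limma adjusted p = 0.310), by 0.52 in the low-ratio arrays and by 1.11 on a second probe set. Sdhb, the iron-sulphur subunit, read 4024, 2371 and 2306 in the KO arrays and 4707, 2280 and 3789 in the wild-type arrays (-0.29 ± 0.36). The groups overlapped.

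The membrane anchors Sdhc and Sdhd showed no separation either. Sdhc read 1477, 1069 and 787 in the KO arrays and 1174, 1382 and 626 in the wild-type arrays (0.09 ± 0.38), and another of its probe sets differed by -1.09. Sdhd read 1474, 974 and 927 in the KO arrays and 1114, 1043 and 1157 in the wild-type arrays, with a difference of -0.004. The median of complex II was 0.05 over all arrays. It was 0.47 in the low-ratio arrays, where all 4 subunits were higher, and -0.17 without KO array 1. With the mean of all probe sets of each gene it was -0.12 over all arrays. Its sign therefore depended on the arrays and on the probe sets used.

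In complex III all 8 subunits taken by symbol were tested, with 3 higher, 5 lower, 0 calls and overlapping groups throughout. Their median was -0.10, and 0.09 in the low-ratio arrays. Cytochrome c1 of this complex, Cyc1, lies outside the symbols used and is counted with the electron carriers below. Cyc1 differed by -0.35. The core proteins Uqcrc1 and Uqcrc2 face the matrix. Uqcrc1 read 2155, 1337 and 1199 in the KO arrays and 2692, 1774 and 1626 in the wild-type arrays (-0.39 ± 0.34). Uqcrc2 read 2999, 1791 and 3378 in the KO arrays and 3636, 1974 and 2306 in the wild-type arrays (0.04 ± 0.35).

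The small subunits of complex III spanned the range of this complex. Uqcrq, an accessory subunit, read 2542, 1410 and 2232 in the KO arrays and 3143, 2203 and 3653 in the wild-type arrays (-0.55 ± 0.33). Uqcrb read 11559, 9147 and 10325 in the KO arrays and 17385, 10295 and 10967 in the wild-type arrays (-0.28 ± 0.28), so wild-type array 1 alone stood high. A second Uqcrb probe set differed by 0.56. Uqcr10 read 2421, 1369 and 2663 in the KO arrays and 2512, 1217 and 2429 in the wild-type arrays, with nearly the same values in both groups (0.08 ± 0.38). Uqcrh, the hinge protein that binds cytochrome c1, read 2710, 2058 and 5436 in the KO arrays and 3202, 1984 and 2988 in the wild-type arrays (0.22 ± 0.39). Only KO array 3 stood apart there, and a second Uqcrh probe set differed by 1.02. Uqcrfs1, the Rieske iron-sulphur protein, differed by -0.03 and Uqcr11 by -0.16.

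Complex IV had the lowest median of the complexes, -0.28 over its 12 tested subunits (-0.22 in the low-ratio arrays). Of these 9 were lower and 3 higher, again with 0 calls. Cox8a, the ubiquitous form of the smallest subunit class, read 2976, 1620 and 1057 in KO arrays 1, 2 and 3, against 3942, 2879 and 3921 in wild-type arrays 1, 2 and 3. KO array 1 lay just above wild-type array 2, and KO arrays 2 and 3 lay below all wild-type arrays. The difference was -1.03 ± 0.38 (SE, limma adjusted p = 0.169), with -0.98 on a second bright probe set and -0.25 in the low-ratio arrays. Without KO array 1 it was -1.43 (limma adjusted p = 0.0342), a comparison in which both KO arrays had a Gapdh ratio of 3.89 or more.

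The ubiquitous isoform Cox4i1, of the subunit that senses ATP, read 7968, 5772 and 6491 in the KO arrays and 11582, 8656 and 8510 in the wild-type arrays. Its groups did not overlap, the difference was -0.50 ± 0.27 (SE, limma adjusted p = 0.294), and over the low-ratio arrays it was -0.25. Cox6a1 read 8257, 5711 and 6786 in the KO arrays and 14522, 8208 and 7585 in the wild-type arrays (-0.50 ± 0.32), and Cox7a2 read 8514, 6166 and 8094 in the KO arrays and 13193, 7592 and 9703 in the wild-type arrays (-0.40 ± 0.29). In both genes wild-type array 1 was the highest value and the groups overlapped. Cox6b1 read 8367, 5627 and 7989 in the KO arrays and 11831, 6000 and 7289 in the wild-type arrays (-0.15 ± 0.32). Of the remaining nuclear subunits, Cox5a differed by -0.46 ± 0.34, Cox5b by -0.10 ± 0.32 and Cox6c by -0.03 ± 0.28, all with overlapping groups.

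The tissue-restricted isoforms of complex IV were dim. Cox6a2, the heart and muscle form, read 62.6, 165 and 55.0 in the KO arrays and 77.1, 104 and 60.1 in the wild-type arrays (0.09 ± 0.40), and Cox8c, a testis form, read 154, 82.3 and 67.9 in the KO arrays and 239, 129 and 127 in the wild-type arrays (-0.64 ± 0.37). Cox4i2, a lung form, read 23.5 to 43.3 in the KO arrays and 41.5 to 52.4 in the wild-type arrays, and Cox6b2, another testis form, 31.2 to 56.4 and 13.3 to 30.3 in the KO and wild-type arrays. Cox4i2, Cox6b2, Cox7b2 and Ndufb4 lay under the filter, a signal of about 43.8, and were not tested. Signals of Cox7b2 were at most 20.9 and those of Ndufb4 at most 15.6 in all arrays.

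Cox7a2l, related to subunit 7a and needed for supercomplexes of complexes III and IV, had the highest difference of the 12 tested members of complex IV at 0.51 ± 0.42. It read 1490, 1445 and 3997 in the KO arrays and 1641, 1111 and 1607 in the wild-type arrays, and only KO array 3 lay above wild type (0.06 in the low-ratio arrays). The probe set of Cox7c was dim, at 43.1, 106 and 167 in the KO arrays and 47.3, 92.4 and 115 in the wild-type arrays. It differed by 0.18 ± 0.45 over all arrays and by -0.71 in the low-ratio arrays. Cox7a1 and Cox8b, left out of the subunits above as forms of muscle and brown fat, were higher by 0.80 ± 0.41 and 1.80 ± 0.80, without passing (limma adjusted p = 0.281 and 0.228). Cox8b read 834, 403 and 619 in the KO arrays and 604, 24.6 and 196 in the wild-type arrays.

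In complex V all 17 subunits were tested, 7 higher and 10 lower, with 0 calls and a median of -0.15, or 0.01 over the low-ratio arrays. Subunit c forms the rotating ring in the membrane and is encoded by 3 genes whose mature proteins are identical. Atp5g1 read 2053, 1161 and 670 in KO arrays 1, 2 and 3, against 2414, 2056 and 2845 in wild-type arrays 1, 2 and 3. KO array 1 lay just under the lowest wild-type array and KO array 3 far under it, and the difference was -1.04 ± 0.40 (SE, limma adjusted p = 0.179). Atp5g2 read 3044, 1968 and 587 in the KO arrays and 3716, 2392 and 3642 in the wild-type arrays, with an overlap and a difference of -1.06 ± 0.53 (SE, limma adjusted p = 0.273). Atp5g3 read 8283, 5413 and 6238 in the KO arrays and 11655, 7431 and 7216 in the wild-type arrays (-0.39 ± 0.30).

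Atp5g1, Atp5g2 and Cox8a were each highest in KO array 1 and lowest in KO array 3, the KO arrays with the lowest and the highest Gapdh ratio. KO array 3 was the lowest KO array for 22 of 75 subunits (29.3%), against 41.5% of all genes tested. In the low-ratio arrays Atp5g1 differed by -0.23, Atp5g2 by -0.07 and Atp5g3 by -0.05. Without KO array 1 Atp5g1 differed by -1.44 (limma adjusted p = 0.0361) and was, with Cox8a, one of the 2 subunits of 75 called in that setting, where 11% of all genes tested were called. The part of RNA integrity in these differences was not tested.

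The other parts of the ATP synthase had differences from -0.53 for Atp5o to 0.20 for Atp5md. Atp5o, which joins the peripheral stalk to the catalytic head, read 3034, 2475 and 2177 in the KO arrays and 3990, 2964 and 4159 in the wild-type arrays (-0.53 ± 0.28, with 0.10 on a second probe set). The stalk subunit Atp5pb read 5536, 4671 and 6870 in the KO arrays and 6172, 4807 and 4879 in the wild-type arrays (0.10 ± 0.27). The catalytic head subunits Atp5a1 and Atp5b differed by -0.39 and -0.37, but other Atp5a1 probe sets differed by 0.13 and 0.34. Of the membrane subunits, Atp5k read 3275, 2327 and 4410 in the KO arrays and 3447, 1922 and 3357 in the wild-type arrays (0.20 ± 0.35). Atp5md, which stabilises synthase dimers, read 1361, 3014 and 3268 in the KO arrays and 1625, 1595 and 3399 in the wild-type arrays (0.20 ± 0.43), so its arrays were split inside both groups. It differed by -0.60 in the low-ratio arrays.

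**Figure D3:**
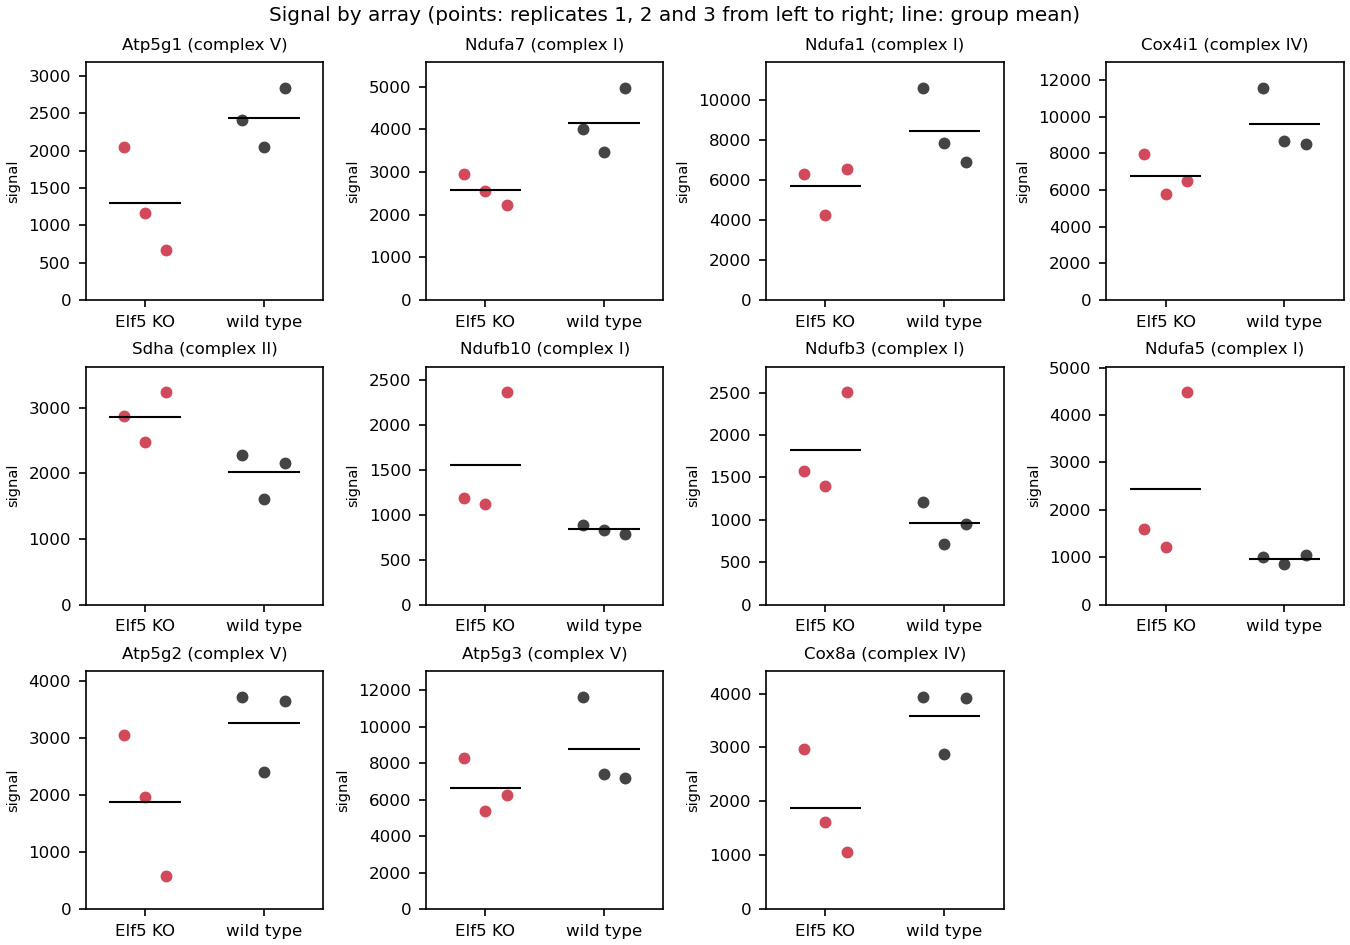
Signal on each array (y axis, linear, from 0) for the 8 subunits whose groups did not overlap, and for Atp5g2, Atp5g3 and Cox8a, in Elf5 KO (left in each panel) and wild type (right), with points for replicates 1, 2 and 3 and a line at the mean of 3 arrays. KO array 3 is the lowest KO value in Atp5g1 (670), Atp5g2 (587) and Cox8a (1057) and the highest in Ndufa5 (4481), Ndufb3 (2506) and Ndufb10 (2359).

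**Figure D4:**
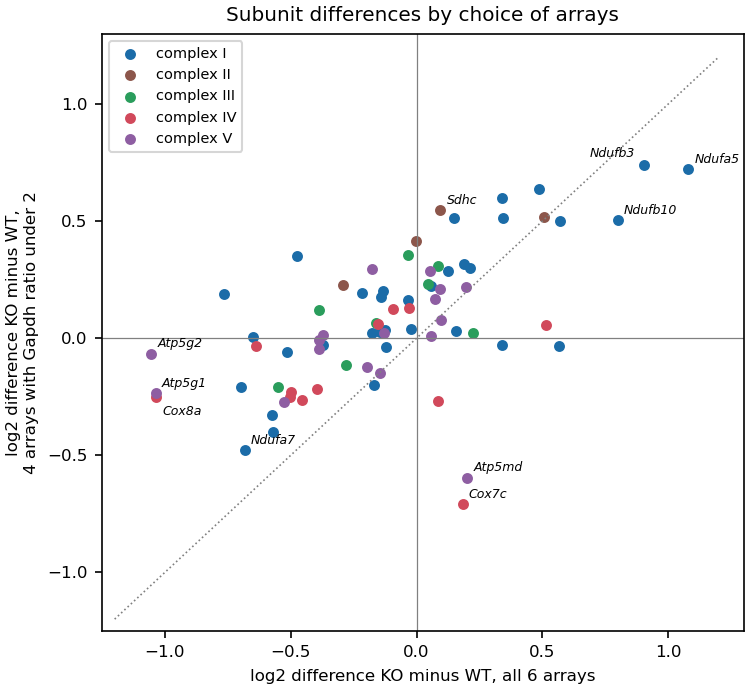
Log2 difference between Elf5 KO and wild type for the 75 subunits tested, over all 6 arrays (x axis) and over the 4 low-ratio arrays (y axis), coloured by complex, with the dotted line at equal values. Atp5g1, Atp5g2 and Cox8a shrink from under -1 to between -0.25 and -0.07, and Ndufa5, Ndufb3 and Ndufb10 go from between 0.80 and 1.08 to between 0.50 and 0.74.

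Several subunits had more than 1 probe set above the filter, which gives a second reading of the same gene. This was so for 43 of the 75. All probe sets of the gene had the same sign of difference in 22 of them and differed in sign in 21, and the median range between probe sets of a gene was 0.41. Ndufv2 had the widest range, 1.23. Cox6a1 (-0.50 and -0.48), Ndufa3 (-0.52 and -0.49) and Cox8a had the narrowest. Many of these genes have processed copies in the genome, and 15 of the 75 probe sets used carry a suffix that marks probes shared with other transcripts.

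Most of the brightest subunits were lower in the KO arrays, as was a bright control added to every array. Of the 15 subunits with a mean signal over 5000, 14 were lower (median -0.37), against 20 of 36 between 2000 and 5000 (median -0.08) and 11 of 24 under 2000 (median 0.09). The Cre control, a transcript added to each hybridisation, read 11820, 12012 and 9854 in KO arrays 1, 2 and 3, against 27746, 19335 and 10208 in wild-type arrays 1, 2 and 3, a log2 difference of -0.66. With all arrays brought to 1 distribution by quantile normalization, 9 of the 15 bright subunits were lower and their median was -0.02. Cox4i1 then differed by -0.16, Cox6a1 by -0.13, Atp5g3 by -0.02 and Uqcrb by 0.17, while Cox8a, Atp5g1, Ndufa5 and Ndufb3 kept differences of -0.99, -1.01, 1.09 and 0.88. The median of complex IV was 0.06 there, so its low place among the complexes did not hold under that scaling.

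Elf5 belongs to the ETS family, and nuclear genes of the respiratory chain are known for promoters with binding sites of the ETS factor GABP and of NRF1. Promoters from RefSeq (GRCm38.p6, 250 bases before to 50 after the start) were found for 64 of the 79 genes, 61 of them tested, with 1 window per gene. The ETS core CCGGAAG, searched on both strands, lay in 16 of these 61 windows (26.2%), in 18.3% of the windows of all genes tested and in 9.12% of all 27025 windows. The NRF1 consensus lay in 13 of the 61 (21.3%), in 10.9% of the windows of all genes tested and in 4.78% of all windows. Subunits with the ETS core had a median difference of 0.03 and those without it -0.13, against -0.01 and 0.07 over all genes tested. Subunits with and without the NRF1 motif had medians of -0.004 and -0.12. The YY1 motif lay in 3 of the 61 and the ERR motif TCAAGGTCA in 2, both strands searched (4.92% and 3.28%, against 1.75% and 0.238% of the windows of all genes tested). Letters that match a motif do not show that a factor binds there.

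The promoters of the 3 subunits with the lowest difference and of the highest are shown, since they span the range of the data and differ in these motifs. Capitals mark matches to these 4 motifs, all are written 5' to 3' in the direction of transcription, and the last 50 bases follow the start. Atp5g2 (chr15:102670998-102671297 on the minus strand) holds 1 NRF1 match, Cox8a (chr19:7217567-7217866 on the minus strand) 2 ETS cores and Ndufa5 (chr6:24527477-24527776 on the minus strand) 1 NRF1 match, while Atp5g1 (chr11:96075582-96075881 on the minus strand) holds none of them.
Atp5g2: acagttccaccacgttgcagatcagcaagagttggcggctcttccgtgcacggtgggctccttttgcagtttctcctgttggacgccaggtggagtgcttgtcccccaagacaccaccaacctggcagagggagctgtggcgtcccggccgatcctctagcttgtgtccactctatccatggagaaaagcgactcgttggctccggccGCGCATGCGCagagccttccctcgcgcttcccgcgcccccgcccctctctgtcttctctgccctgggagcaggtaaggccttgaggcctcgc
Atp5g1: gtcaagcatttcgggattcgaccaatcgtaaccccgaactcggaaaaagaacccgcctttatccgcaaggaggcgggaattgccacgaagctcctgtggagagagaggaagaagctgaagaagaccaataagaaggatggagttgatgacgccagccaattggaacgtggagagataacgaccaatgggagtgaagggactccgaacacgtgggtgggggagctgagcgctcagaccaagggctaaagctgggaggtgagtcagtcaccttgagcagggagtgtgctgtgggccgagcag
Cox8a: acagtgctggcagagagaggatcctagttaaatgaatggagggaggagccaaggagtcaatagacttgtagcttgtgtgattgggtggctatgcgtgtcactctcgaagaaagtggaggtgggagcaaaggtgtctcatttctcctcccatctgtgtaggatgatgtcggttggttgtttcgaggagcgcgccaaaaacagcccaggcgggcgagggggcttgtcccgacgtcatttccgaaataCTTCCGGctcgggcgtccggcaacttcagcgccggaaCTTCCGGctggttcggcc
Ndufa5: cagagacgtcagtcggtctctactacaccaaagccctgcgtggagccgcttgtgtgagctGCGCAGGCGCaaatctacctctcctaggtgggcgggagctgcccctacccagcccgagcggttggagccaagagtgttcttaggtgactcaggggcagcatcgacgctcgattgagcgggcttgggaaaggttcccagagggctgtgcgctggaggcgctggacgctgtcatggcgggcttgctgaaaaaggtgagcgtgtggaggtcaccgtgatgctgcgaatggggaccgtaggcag
The 3 promoters of lower subunits thus carry an NRF1 match, no match and ETS cores, and the highest subunit carries an NRF1 match. The promoters of the next highest subunits, Ndufb3 (0.90) and Ndufb10 (0.80), are not shown and hold no match to any of these motifs.

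Among other genes of the same pathways there were 0 calls without the replicate block, where 1.24% of all genes tested were called. In lists this short, 0 calls lie near that share. Of 42 assembly factors tested 22 were higher and 20 lower (median 0.07). Ndufaf6, needed to assemble complex I, differed by 0.94 ± 0.29 and Sdhaf1, an assembly factor of complex II, by -0.83 ± 0.30. Of 14 genes for electron carriers 8 were higher and 6 lower (median 0.08), with the methyltransferase Coq5 of ubiquinone synthesis at 0.85 ± 0.32 and Etfb, a subunit of the electron transfer flavoprotein, at 0.88 ± 0.33. With the replicate number as a block Etfb rose (limma adjusted p = 0.0494), where 7.7% of all genes rose and 4.53% fell. Adjusted p-values of these 4 genes without the block lay between 0.113 and 0.172.

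Genes of the tricarboxylic acid cycle were 6 higher and 11 lower of 17 tested (median -0.08), among them fumarase, Fh1, at 0.88 ± 0.35 (0.56 over the low-ratio arrays) and the succinyl-CoA ligase subunit Sucla2 at 0.77 ± 0.34. Of 15 regulators of mitochondrial biogenesis 10 were higher and 5 lower (median 0.27). KO and wild-type arrays were fully apart for 6 of these 15 (40%), 4 higher and 2 lower, against 27.3% of all genes tested. Esrra, a nuclear receptor that activates respiratory genes, read 179, 94.0 and 122 in the KO arrays and 291, 218 and 260 in the wild-type arrays, without overlap and with a difference of -0.92 ± 0.31 (SE, limma adjusted p = 0.141), against -0.47 over the low-ratio arrays. Tfam, a transcription factor and packaging protein of mitochondrial DNA, read 338, 421 and 461 in the KO arrays and 277, 299 and 250 in the wild-type arrays, also without overlap (0.53). Gabpa, the ETS subunit of GABP, differed by 0.42. Pprc1, a coactivator of the same family as Ppargc1a, differed by -0.79 ± 0.29. Of 22 genes for import and the outer membrane 10 were higher and 12 lower (median -0.04), and the import pore Tomm40 read 338, 81.8 and 40.3 in the KO arrays and 355, 544 and 237 in the wild-type arrays. Tomm40 differed by -1.58 ± 0.61, and by -0.08 in the low-ratio arrays. The adenine nucleotide carrier Slc25a4 differed by 0.79 ± 0.40, and by 0.33 in the low-ratio arrays.

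Markers of the cells of a whole gland differed in their summed signal, with no marker listed at 0 on any array. For 12 of 12 luminal epithelial markers the sum was 63176 to 80806 in the KO arrays and 69931 to 158592 in the wild-type arrays. For 10 of 10 fibroblast markers it was 25213 to 37818 in the KO arrays and 12473 to 19693 in the wild-type arrays, and for 10 of 10 leukocyte markers 9410 to 15547 in the KO arrays and 4897 to 7148 in the wild-type arrays. For 7 of 10 white adipocyte markers on the array it was 27143 to 36964 in the KO arrays and 19187 to 23100 in the wild-type arrays. These 3 sums did not overlap between the groups, and that of luminal markers did. Taken gene by gene, KO arrays lay fully above wild type for 5 of 10 fibroblast, 5 of 9 tested leukocyte and 2 of 7 white adipocyte markers. They lay fully below it for 1 of 12 luminal markers. Of all genes tested, 16.7% were fully higher and 10.6% fully lower. Fabp4 and Adipoq were the brightest white adipocyte markers, and Lipe was lower (-0.30). Most of the luminal sum came from 5 milk genes (Csn2, Wap, Csn1s1, Csn3 and Glycam1), all lower, with 41930 to 65690 in the KO arrays and 48730 to 143567 in the wild-type arrays. These 5 very bright genes differed by -0.68 (Csn2) to -0.51 (Wap), and the added Cre control by -0.66. With quantile normalization the median over the 12 luminal markers went from -0.58 to -0.045. The part of array scaling in the milk gene differences was not tested. The other 7 luminal markers summed to 15116 to 21247 in the KO arrays and 15025 to 21201 in the wild-type arrays, with 3 of them higher (Krt8, Krt18 and Cdh1) and 4 lower.

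Of the single markers, 4 fibroblast genes, among them Fap (1.97 ± 0.32) and Col5a2 (1.65 ± 0.28), and Vwf of endothelium (1.54 ± 0.31) rose (limma adjusted p = 0.0356, 0.0441 and 0.0498 for these 3), where 1.13% of all genes rose. With the replicate number as a block 7 of 10 fibroblast, 5 of 9 tested leukocyte, 2 of 7 white adipocyte, 1 of 8 myoepithelial and 1 of 8 endothelial markers rose, where 7.7% of all genes rose. In that fit 1 of 12 luminal markers rose and 2 fell. Sums of myoepithelial markers (8 of 8) were 11249 to 16971 in the KO arrays and 14130 to 19299 in the wild-type arrays, and of endothelial markers (8 of 8) 1604 to 2219 and 1473 to 1753 in the KO and wild-type arrays. The list of muscle and brown fat genes (12 of 12) summed to 5569 to 12714 in the KO arrays and 10560 to 24300 in the wild-type arrays. Cidea, a lipid droplet protein that mammary epithelium also makes, was 72.6%, 12% and 28.3% of that sum in KO arrays 1, 2 and 3 and 92.5%, 69.8% and 89.9% in wild-type arrays 1, 2 and 3. The other 11 genes were higher (median of the list 1.22), with 0 calls. With the replicate number as a block 3 of the 12 rose and 1, Cidea, fell. The part of cell makeup in the subunit differences was not tested.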

How the data were processed

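RNA of 6 whole mammary glands, 3 Elf5 KO and 3 wild-type, was hybridised to 1-colour Affymetrix arrays of 45101 probe sets, 1 array per animal. The titles call the samples biological replicates. The authors deposited a signal intensity per probe set, and the submitters' processing notes name MAS5 and affy. Each array's deposited intensity has a mean of 150 after trimming 2% at each end, so it was already scaled and was not normalized again. Probe sets were named from the platform annotation, in which 34945 had 1 gene, 932 several and 9211 none. Only those with 1 gene were used, and 64 were controls.

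From the intensity, log2(signal + 16) was computed. For each gene the probe set with the highest mean was kept, genes under the 40th percentile of these means (a signal of about 43.8) were left out, and 10916 of 18193 genes were tested with lmFit and eBayes (trend) in limma 3.58.1 under R 4.3.3. The p-values were adjusted over all of these genes by Benjamini-Hochberg. Tests were first run on simulated data. The number of arrays limits the precision, and an exact permutation test of 3 against 3 arrays cannot go below 0.1.

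The titles give both groups replicate numbers 1 to 3, and the labels state no pairing. Deviations from the group means of same-numbered arrays correlated at 0.459, 0.336 and 0.291 over all genes tested. These correlations come from the same values that the fits use, so they cannot settle whether the arrays are paired. A fit with the number as a block is therefore given as an alternative, where it moves calls of the lists described. The block raised calls from 135 to 1335 genes and called 0 subunits.

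Named subunits were, in each complex, the 3 lowest and the 3 highest differences (all of complex II), the isoform pairs and the subunit c genes. Of each other list the 2 genes with the smallest p were named. Further genes were named after their values were seen. The members, lists and tests were chosen with earlier results of these data known. Subunit symbols that are not listed here were not analysed here. Promoter windows came from the RefSeq table of GRCm38.p6, and those on chromosome 18 were not used for subunits or for all genes.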

Additional observations from a re-analysis of the deposited data

How the results depend on the processing

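The count of subunits called was 0 in every setting tried except without KO replicate 1, where Atp5g1 and Cox8a passed lower and 11% of all genes were called, so that it ranged from 0 to 2 when single arrays were left out. The count of genes called, 135, was less stable. It was 82 with a pseudocount of 1, 56 with no filter on dim genes, 75 with the mean of probe sets, 74 with x and s probe sets passed over, 280 with median scaling and 1335 with the replicate block, and it ranged from 0 to 1206 when single arrays were left out. It was 0 in limma both with the Gapdh ratio as a covariate (1112 genes at an unadjusted p under 0.05) and in the low-ratio arrays (1013 genes). The replicate block changed no call of a subunit, with 19 of 75 subunits at an unadjusted p under 0.05 (32% of all genes) against 6 without it (21.8% of all genes).

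Median scaling moved the median of all genes tested to 0.37, and that of the subunits to 0.19, so the subunits lay 0.17 under all genes there and 0.19 under them in the values reported. With it all 5 complexes were above 0, complex I at 0.24, complex II at 0.36, complex III at 0.22, complex IV at 0.05 and complex V at 0.18. Complex II also stood at 0.36 with the Gapdh ratio as a covariate and at 0.47 in the low-ratio arrays. When single arrays were left out the median of the subunits ranged from -0.28 to 0.08, of complex I from -0.25 to 0.17, of complex II from -0.17 to 0.22, of complex III from -0.29 to 0.01, of complex IV from -0.45 to -0.16 and of complex V from -0.34 to 0.08. With the mean of probe sets the subunits lay 0.04 above all genes, complex I stood at 0.05 and complex II at -0.12. Of 625 values of named subunits, 570 kept direction and side of the threshold, 53 changed sign without passing and 2 newly passed. Choosing probe sets on the linear mean was added after seeing the data (119 genes called). The cause of these shifts was not tested. A fit that leaves 1 KO array assumes that it varies like the others.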
